A study of Homo sapiens with 12 samples.

Results

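The 4 TEAD transcription factors, TEAD1, TEAD2, TEAD3 and TEAD4, and 5 of their cofactors, YAP1, WWTR1 (which encodes TAZ), VGLL1, VGLL3 and VGLL4, were followed through RNA sequencing of 2 cancer cell lines treated with SWTX-143. These 9 genes were found by their symbols among the 27064 symbols that both deposited count tables share. SWTX-143 is an irreversible inhibitor of TEAD proteins, and the study asked what it does to the transcriptome of cells whose Hippo pathway is inactive. NCI-H226 (H226 below) is a mesothelioma line and ACHN a kidney cancer line, and the submitters describe both as deficient in NF2, the tumour suppressor that activates the Hippo kinases. Each line was grown overnight with 100 nM SWTX-143 or with the solvent DMSO, and each of the 4 combinations has 3 libraries, 12 in all. No other genotype or agent is named in the labels. Each line is a single culture model of its tumour, and whether replicate libraries come from different cultures is not recorded, so p-values measure the spread between these libraries, which may be technical. The lines differ in tissue of origin, and this and any difference in genotype or handling cannot be told apart in a comparison of H226 with ACHN.

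TEAD proteins bind DNA but depend on cofactors to activate or repress transcription. YAP and TAZ are the coactivators that the Hippo kinases MST1/2 and LATS1/2 keep out of the nucleus, and the vestigial-like (VGLL) proteins bind TEADs on a surface that overlaps theirs, with VGLL4 best known as a repressor that competes with YAP. TEADs carry a fatty acid in a central lipid pocket, and irreversible inhibitors of the class studied here occupy that pocket. RNA levels of the factors, reported here, say nothing about the protein or its lipid state.

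The libraries held between 9690980 and 11262663 counts. The mesothelioma label was checked on 14 mesothelial genes, whose summed level lay between 5130 and 5300 CPM (counts scaled to a common library size) in the DMSO libraries of H226 and between 225 and 227 CPM in those of ACHN. LRRN4 (177 CPM in ACHN against 252 in H226, with DMSO) and TBX18 (38.3 against 82.4) held most of the ACHN sum. All 14 genes were called higher in H226 with DMSO. Calretinin (CALB2), a defining mesothelial marker, was at 1027 ± 9.85 CPM (SD, n = 3) in H226 with DMSO. The kidney label was checked on 12 renal genes, which summed to between 726 and 756 CPM in ACHN with DMSO and to between 187 and 191 CPM in H226. PAX8, a renal lineage factor, was at 392 ± 9.57 CPM (SD, n = 3) in ACHN with DMSO, while the proximal tubule genes MME and LRP2 were at 0 in the ACHN libraries. Of the 8 renal genes tested between the lines, 5 were higher in ACHN and 3 in H226: CDH6 (122 CPM in H226 against 0.211 in ACHN, with DMSO), MME (52.4 against 0) and AQP1 (4.85 against 0.178), and these make up most of the H226 sum. Markers of other cell types were mostly at or near 0, with a few genes as exceptions. The leukocyte gene PTPRC had no count in any library, while the 6 immune genes summed to between 10.5 and 12.8 CPM with DMSO and 13.8 and 17.2 CPM with SWTX-143 in H226, and to between 42.7 and 45.4 and between 56.5 and 65.5 CPM in ACHN. CD68 made up nearly all of this in ACHN and most of it in H226, where CD14 was at 1.95 CPM with DMSO and 2.95 CPM with SWTX-143. The 6 fibroblast genes summed to between 1121 and 1133 CPM with DMSO and 1179 and 1215 CPM with SWTX-143 in H226, and to no more than 7.35 CPM in ACHN; COL1A1 held most of the H226 sum (1113 CPM with DMSO), COL3A1 was at 13.1 CPM and COL1A2 had no count in any library. Of 5 endothelial genes, KDR alone exceeded 1 CPM, at 224 ± 5.85 CPM with DMSO and 157 ± 7.54 CPM with SWTX-143 in H226 (SD, n = 3), with PECAM1 and CDH5 under 0.2 CPM. NF2 had 0 counts in the 3 DMSO libraries of H226, whereas ACHN held 112 ± 0.294 CPM (SD, n = 3) of NF2 RNA. An RNA count does not show whether a mutant transcript makes protein, so it does not test the deficiency stated for ACHN.

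Promoter sequence was available to compare for 7 of the 9 genes in RefSeq (GRCh38.p14), in 13 entries, and TEAD1 and TEAD4 did not match one. The 250 bases before each start were searched on both strands for the core TEAD motif GGAATG (reverse CATTCC) and for the AP-1 motif TGANTCA, which is its own reverse complement. GGAATG or CATTCC occurred in the windows of YAP1 and VGLL1 and in none of the windows of TEAD2, TEAD3, WWTR1, VGLL3 and VGLL4, and 11.9% of the 35116 promoter windows in the table hold it. The AP-1 motif occurred in no window of the 7 genes, against 6.57% of all windows. The windows of YAP1 (chr11:102110197-102110446, plus strand) and VGLL1 (chrX:136531965-136532214, plus strand) are printed 5′ to 3′ because they hold the motif, those of TEAD3 (chr6:35497080-35497329, minus strand) and VGLL3 (chr3:86991150-86991399, minus strand) as examples of windows without it, and capitals mark the motif.
YAP1: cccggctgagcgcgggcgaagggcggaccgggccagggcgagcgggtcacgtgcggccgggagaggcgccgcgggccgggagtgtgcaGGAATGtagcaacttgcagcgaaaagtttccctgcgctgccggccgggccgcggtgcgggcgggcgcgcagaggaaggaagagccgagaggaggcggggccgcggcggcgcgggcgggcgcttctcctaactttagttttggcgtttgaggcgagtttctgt
VGLL1: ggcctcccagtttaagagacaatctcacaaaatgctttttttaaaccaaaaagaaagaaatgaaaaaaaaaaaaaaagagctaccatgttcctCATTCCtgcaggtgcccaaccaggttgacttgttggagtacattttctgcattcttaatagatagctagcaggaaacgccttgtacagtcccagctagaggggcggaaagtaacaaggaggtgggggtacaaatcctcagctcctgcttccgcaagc
TEAD3: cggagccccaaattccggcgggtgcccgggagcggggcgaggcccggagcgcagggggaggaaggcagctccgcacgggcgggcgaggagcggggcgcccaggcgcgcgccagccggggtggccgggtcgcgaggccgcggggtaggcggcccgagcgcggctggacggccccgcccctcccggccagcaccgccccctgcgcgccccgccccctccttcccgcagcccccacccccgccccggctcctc
VGLL3: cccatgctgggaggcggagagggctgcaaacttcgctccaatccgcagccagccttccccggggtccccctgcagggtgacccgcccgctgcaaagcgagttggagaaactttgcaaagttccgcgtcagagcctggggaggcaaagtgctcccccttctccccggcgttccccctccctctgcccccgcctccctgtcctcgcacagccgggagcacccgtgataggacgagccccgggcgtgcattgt
The motif in YAP1 begins 162 bases before the start and reads along the gene, and in VGLL1 it begins 157 bases before the start on the opposite strand. YAP1 was among the abundant genes in both lines and VGLL1 had no count, so the 2 windows that hold the motif belong to an abundant and an undetected gene. A match is only a run of letters, and the absence of one says nothing about sites elsewhere.

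In untreated cells the lines differed in their main TEAD and in their main coactivator. Levels of different genes were compared as CPM per kilobase of exon. TEAD1, the broadly expressed family member, led in H226 with DMSO at 43.5 ± 2.41 CPM per kb, followed by VGLL3 at 32.2 ± 1.21, TEAD4 at 31.6 ± 1.70 and YAP1 at 29.3 ± 1.32 CPM per kb (SD, n = 3 each), and the libraries of TEAD1 lay above those of every other member. TEAD4 overlapped with both VGLL3 and YAP1 and cannot be ranked against them, while the libraries of VGLL3 lay just above those of YAP1. VGLL4 came next at 16.4 ± 0.255 CPM per kb, then TEAD3 at 12.4 ± 1.01, WWTR1 at 5.08 ± 0.0312 and TEAD2 at 2.66 ± 0.246 CPM per kb (SD, n = 3 each), with no overlap between neighbours.

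The order in ACHN with DMSO began with TEAD4 at 37.0 ± 1.35 CPM per kb and WWTR1 at 27.4 ± 1.70 CPM per kb, ahead of TEAD1 at 19.6 ± 0.205 and YAP1 at 18.0 ± 0.783 CPM per kb (SD, n = 3 each). VGLL4 was at 9.32 ± 0.502 CPM per kb. TEAD3 at 5.74 ± 0.304 and TEAD2 at 5.70 ± 0.755 CPM per kb could not be ranked, since their libraries overlapped. VGLL3 and VGLL1 closed the order at or near 0.

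Between the DMSO libraries, 84.4% of the 14664 genes tested differed between the lines at an adjusted p under 0.05, so a call here is the rule rather than the exception. Among the 9 genes, 5 were higher in H226, 3 were lower, and VGLL1 could not be tested; 42.2% of all genes were called higher and 42.2% lower. The H226 libraries lay entirely to one side of the ACHN libraries for 8 of the 9 genes, and for 85% of all genes tested. WWTR1 had 5.39-fold less RNA in H226 than in ACHN (log2 difference -2.43 ± 0.05 SE, adjusted p = 2.27e-57), while YAP1 was 1.63-fold higher in H226 (0.71 ± 0.05 SE, adjusted p = 6.61e-25). TEAD1 and TEAD3 were higher in H226 by log2 differences of 1.15 ± 0.04 and 1.11 ± 0.08, and TEAD2 was lower by a similar margin at -1.11 ± 0.12 (SE). TEAD4 differed least, at -0.23 ± 0.05 SE (adjusted p = 7.31e-05). VGLL4 was 1.76-fold higher in H226, at 0.81 ± 0.05 SE on the log2 scale.

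**Figure D1:**
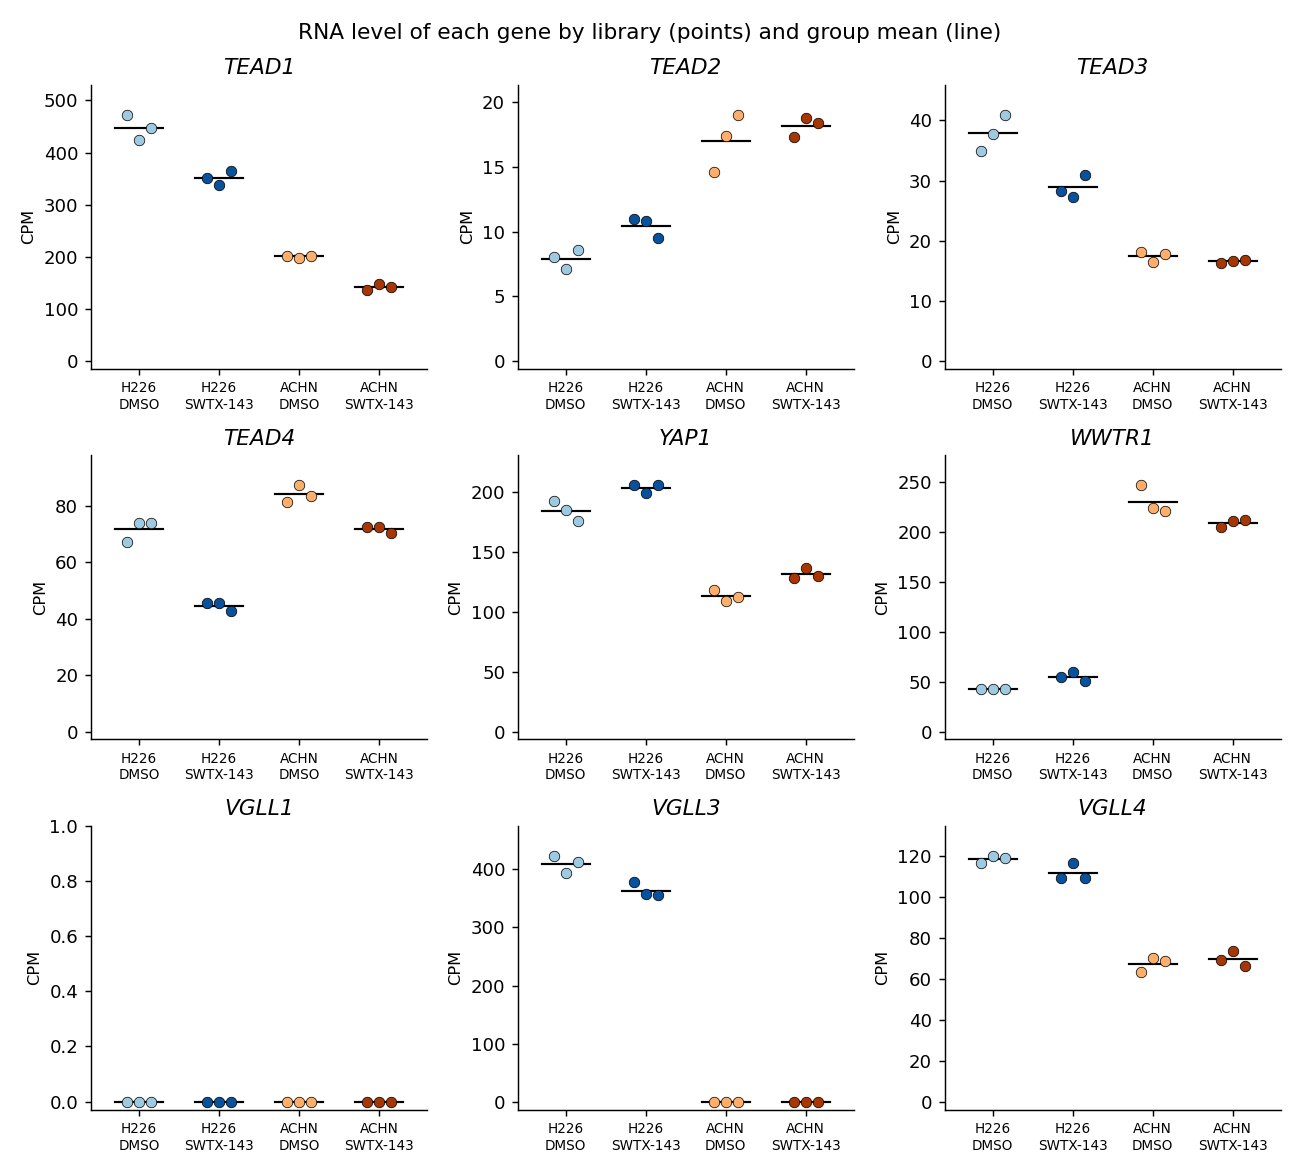
Level of each of the 9 genes in each library (vertical axes, CPM, one linear scale per panel that includes 0) for the 4 groups of line and treatment (horizontal axes), with points for the 3 libraries of a group and a line at the group mean. TEAD1 and TEAD4 with SWTX-143 lie below DMSO in both lines, WWTR1 moves up in H226 and down in ACHN, and VGLL3 is seen in H226 at 354 to 423 CPM and at or near 0 in ACHN.

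SWTX-143 lowered 3 of the 4 TEAD genes in H226 and 2 of the 4 in ACHN. The drug effect reached far beyond them: 40.7% of the 13484 genes tested in H226 and 17.8% of the 13483 tested in ACHN had an adjusted p under 0.05. Of the 8 members tested in H226, 4 were lower and 3 were higher, against 21.6% lower and 19% higher among all genes. In ACHN, 7 members were tested, of which 3 were lower and 1 was higher, against 9.37% lower and 8.43% higher among all genes. The 3 treated libraries lay entirely to one side of the 3 DMSO libraries for 7 of the 9 genes in H226 and 4 of 9 in ACHN, and for 48.4% and 31.7% of all genes tested. In these bulk cultures a shift in the mix of cells and a shift in RNA per cell cannot be told apart.

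TEAD1 counted 473, 423 and 447 CPM in the DMSO libraries of H226 and 351, 339 and 364 CPM in the treated ones. All treated values were below all DMSO values, and the fall was 0.36 on the log2 scale (-0.36 ± 0.04 SE, adjusted p = 5.91e-10 by edgeR's quasi-likelihood test with Benjamini-Hochberg adjustment). In ACHN, TEAD1 was at 202, 199 and 203 CPM with DMSO and at 137, 147 and 143 CPM with SWTX-143. The groups again did not overlap, and the mean went from 201 ± 2.10 to 143 ± 5.01 CPM (SD, n = 3; log2 change -0.51 ± 0.04 SE, adjusted p = 4.83e-15). TEAD1 was thus more abundant in H226 and changed by the larger log2 amount in ACHN, but the difference between its 2 responses, 0.15 ± 0.06 SE (H226 minus ACHN), missed the threshold (adjusted p = 0.0934, 95% interval 0.03 to 0.27). That call turned with the processing. The adjusted p was 0.0420, 0.0197 and 0.0487 with RLE, upper-quartile and library-size scaling, 0.0443 without a filter and 0.0129 when genes under 5 CPM were left out, and it was 0.00976 without H226 DMSO replicate 1 and 0.0189 without H226 SWTX-143 replicate 2.

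TEAD4, which is known for its part in trophectoderm and is often raised in tumours, fell most among the 9 genes in H226. Its H226 libraries were at 67.3, 74.0 and 74.0 CPM with DMSO and at 45.6, 45.7 and 42.7 CPM with SWTX-143. The treated libraries sat well below the others, with a log2 change of -0.69 ± 0.06 SE (adjusted p = 1.93e-14), a 1.62-fold drop. ACHN libraries were at 81.3, 87.3 and 83.4 CPM with DMSO and at 72.4, 72.5 and 70.3 CPM with SWTX-143. This was again a separation without overlap but a smaller one, with a log2 change of -0.24 ± 0.05 SE (adjusted p = 2.97e-04). The difference in response between the lines was -0.46 ± 0.08 SE (H226 minus ACHN, adjusted p = 5.20e-06).

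TEAD3, best known from placenta, went from 34.8, 37.8 and 41.0 CPM to 28.4, 27.3 and 31.0 CPM in H226. The treated libraries were all lower, and the log2 change was -0.39 ± 0.08 SE (adjusted p = 2.02e-05). In ACHN the values were 18.2, 16.5 and 17.8 CPM with DMSO and 16.3, 16.7 and 16.9 CPM with SWTX-143. Those groups overlapped, and the log2 change of -0.09 ± 0.09 SE did not pass (adjusted p = 0.561), with a 95% interval from -0.28 to 0.09. The difference between the lines, -0.31 ± 0.12 SE, did not pass either (adjusted p = 0.0649).

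TEAD2, the least abundant TEAD in H226, was the one that went up there. It was at 8.03, 7.14 and 8.59 CPM with DMSO and at 11.0, 10.8 and 9.47 CPM with SWTX-143 in H226. The 2 sets did not overlap, and the log2 change was 0.39 ± 0.13 SE (adjusted p = 0.0134). The call rested on few counts and was lost without H226 DMSO replicate 2 (adjusted p = 0.0869) or without H226 SWTX-143 replicate 1 (adjusted p = 0.0545). In ACHN, TEAD2 was at 14.6, 17.4 and 19.0 CPM with DMSO and at 17.3, 18.7 and 18.4 CPM with SWTX-143. These overlapped, and the log2 change was 0.07 ± 0.10 SE (adjusted p = 0.659, 95% interval -0.12 to 0.27). The 2 responses did not differ past the threshold (0.31 ± 0.16 SE, adjusted p = 0.213).

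YAP1 was the member that rose in both lines. Its RNA was at 193, 185 and 176 CPM with DMSO and at 206, 199 and 206 CPM with SWTX-143 in H226. Every treated library was above every DMSO library, though the step was small at 0.13 ± 0.04 SE (log2, adjusted p = 0.0137), and it did not pass without H226 DMSO replicate 3 (adjusted p = 0.119) or without H226 SWTX-143 replicate 1 (adjusted p = 0.0521). ACHN went from 119, 109 and 113 CPM to 129, 137 and 130 CPM. The groups did not overlap, the log2 change was 0.20 ± 0.04 SE (adjusted p = 6.06e-04), and the response did not differ detectably between the lines (-0.08 ± 0.06 SE, adjusted p = 0.487, 95% interval -0.21 to 0.05).

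WWTR1, the gene for the YAP paralogue TAZ, moved in opposite directions. With DMSO its H226 libraries lay close together at 42.7, 43.0 and 42.5 CPM, and with SWTX-143 they were at 55.1, 59.8 and 50.7 CPM. All 3 treated libraries were higher, and the log2 change was 0.36 ± 0.06 SE (adjusted p = 5.76e-06). In ACHN, where WWTR1 was abundant, the values were 247, 224 and 221 CPM with DMSO and 205, 211 and 212 CPM with SWTX-143. The treated libraries were all lower, by -0.15 ± 0.04 SE on the log2 scale (adjusted p = 0.00414), and without ACHN DMSO replicate 1, the highest of them, the change was -0.10 and did not pass (adjusted p = 0.0724). The difference in response was 0.51 ± 0.08 SE (H226 minus ACHN, adjusted p = 1.97e-07). Among the 12333 genes tested in both lines, 67 (0.543%) were called higher in H226 and lower in ACHN, and 11.3% were called in both lines in any direction.

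Of the 3 VGLL genes, VGLL1 had 0 counts in the 12 libraries, which allows a level of at most 0.0885 to 0.0994 CPM in a group (3 counts over its libraries, counting error only). VGLL3, a cofactor with links to mesenchymal cells, was among the most abundant members in H226. It was at 423, 392 and 412 CPM with DMSO and at 377, 356 and 354 CPM with SWTX-143. The groups did not overlap, and the log2 change was -0.18 ± 0.04 SE (adjusted p = 2.24e-04). In ACHN the counts of VGLL3 were 4, 0 and 1 with DMSO and 0 in each treated library. Over the pooled DMSO libraries, H226 had 2713-fold more VGLL3 RNA than ACHN (95% interval of the ratio 1162 to 8358, counting error only, from 12334 and 5 counts). Since 4 of the 5 ACHN counts came from 1 library, the size of the ratio rests on it: the fitted log2 difference was 11.30, and 12.82 without ACHN DMSO replicate 1. With SWTX-143 it was at least 4092-fold higher, set against a floor of 3 counts over the group. No drug response of VGLL3 can be read in ACHN at this depth, nor can its difference between the lines (3.63 ± 1.31 SE, adjusted p = 0.0649), which passed without ACHN DMSO replicate 2 (4.16, adjusted p = 0.0314).

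VGLL4 changed least among the members tested. In H226 it was at 117, 120 and 119 CPM with DMSO and at 109, 117 and 109 CPM with SWTX-143, and in ACHN at 63.3, 70.2 and 68.8 CPM and at 69.1, 73.7 and 66.1 CPM. The groups overlapped in both lines, with log2 changes of -0.09 ± 0.05 SE in H226 (adjusted p = 0.121, 95% interval -0.19 to 0.00) and 0.03 ± 0.06 SE in ACHN (adjusted p = 0.780, 95% interval -0.08 to 0.14). VGLL4 shares 1596 exon bases with ATG7 on the other strand, and because the strand setting of the counting is not given in the sources used here, reads from this stretch may belong to either gene. ATG7, an autophagy gene, had a log2 change of 0.03 ± 0.05 SE in H226 and 0.01 ± 0.06 SE in ACHN. The antisense partners of TEAD2 and WWTR1 with a level in the tables were under 1 CPM on average, at 0.545 CPM for CD37 and 0.327 CPM for WWTR1-AS1.

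**Figure D2:**
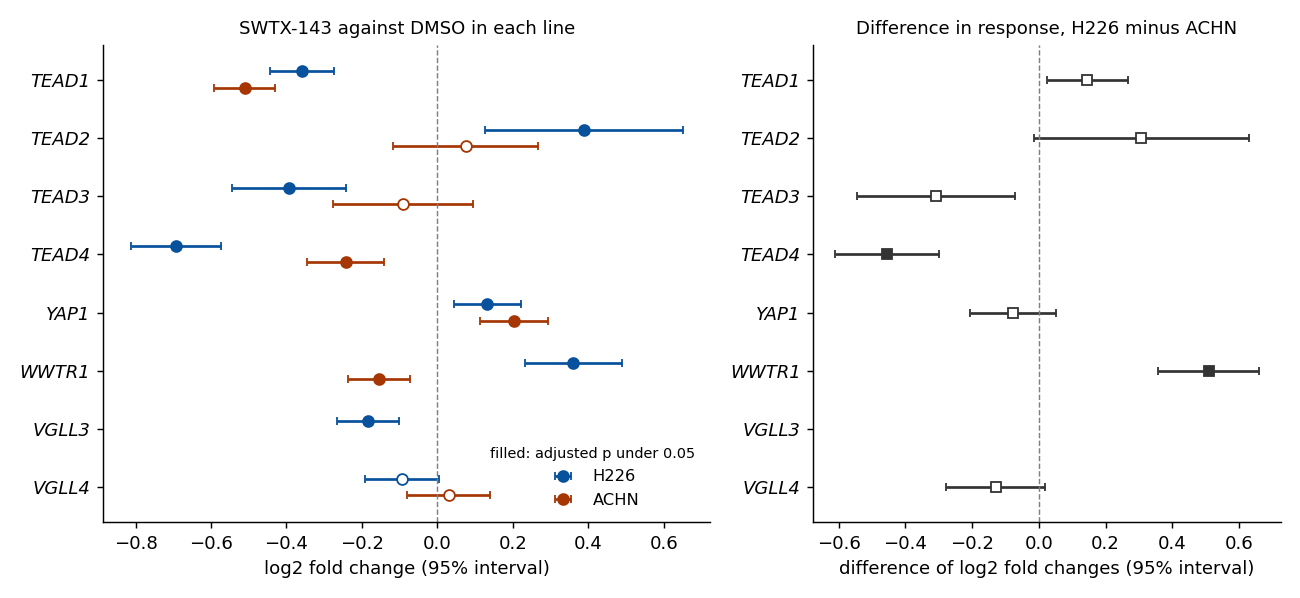
Log2 fold change of SWTX-143 against DMSO in each line (left) and the difference of the 2 responses, H226 minus ACHN (right), both on the horizontal axis, for the members tested (vertical axis), with 95% intervals; filled symbols have an adjusted p under 0.05. TEAD4 (-0.46) and WWTR1 (0.51) are the 2 filled symbols on the right, and VGLL3 is drawn for H226 alone.

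Side by side, TEAD1 and TEAD4 were lower in both lines, YAP1 was higher in both and WWTR1 was opposite. That makes 4 of the 7 members tested in both lines called in both, against 11.3% of the 12333 genes tested in both. The difference test called 1 member lower (TEAD4) and 1 higher (WWTR1) of 8 tested, against 9.7% and 5.89% of the 14664 genes tested. The main TEAD transcripts fell while the YAP1 transcript did not, so the make-up of the set shifted. With 3 libraries a group, an exact two-sided permutation test cannot go below p = 0.1, and the values that follow are read by whether the groups overlap.

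Summed over the 4 genes, TEAD RNA in H226 dropped from 90.2 ± 1.97 to 66.8 ± 1.03 CPM per kb, and in ACHN from 68.0 ± 1.49 to 57.0 ± 0.893 CPM per kb (SD, n = 3), without overlap in either line (exact permutation p = 0.1 each, 0.133 after Benjamini-Hochberg adjustment over 16 such tests). TEAD4 made up 35.0% ± 1.89 of TEAD RNA in H226 with DMSO and 29.4% ± 1.44 with SWTX-143, without overlap. In ACHN it made up 54.4% ± 1.16 and 55.4% ± 0.978 (SD, n = 3), and those libraries overlapped (exact permutation p = 0.3). TEAD1 showed the other arrangement, with overlapping shares of 48.3% ± 2.59 and 51.1% ± 1.15 in H226 and separate shares of 28.8% ± 0.802 and 24.3% ± 0.561 in ACHN (SD, n = 3).

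The share of TEAD2, a minor component, was 2.94% with DMSO and 5.23% with SWTX-143 in H226, and 8.38% and 10.7% in ACHN, without overlap in either line. In ACHN, TEAD2 itself was not called, while TEAD1 and TEAD4 fell. TEAD3 shares were 13.8% and 14.2% in H226, which overlapped, and 8.46% and 9.57% in ACHN, which did not. YAP1 and WWTR1 together stood at 0.382 ± 0.0211 of the TEAD sum in H226 with DMSO and at 0.583 ± 0.00868 with SWTX-143. In ACHN the same ratio was 0.669 ± 0.0509 with DMSO and 0.804 ± 0.00810 with SWTX-143 (SD, n = 3), again without overlap. Both lines therefore held more coactivator transcript per TEAD transcript with SWTX-143. The YAP1 and WWTR1 sum itself went from 34.4 ± 1.33 to 38.9 ± 0.301 CPM per kb in H226, without overlap. In ACHN that sum was 45.4 ± 2.42 and 45.8 ± 0.984 CPM per kb (SD, n = 3), and the groups overlapped (exact permutation p = 0.8).

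Within the coactivator pair, H226 had 5.78 ± 0.252 times as much YAP1 as WWTR1 RNA per kb with DMSO and 4.96 ± 0.491 times with SWTX-143, whereas ACHN had 0.658 ± 0.0208 and 0.843 ± 0.0238 (SD, n = 3). The ratio thus moved down in H226 and up in ACHN, with no overlap between groups in either line. These ratios depend on the exon length used for each gene, and with the longest transcript of each gene in its place they were 4.03 and 3.46 in H226 and 0.459 and 0.588 in ACHN, with the same directions. The order of the members, by the exon lengths used throughout, also changed with SWTX-143. In treated H226, YAP1 stood above VGLL3 and TEAD4, with no overlap between neighbours, and in treated ACHN, YAP1 at 21.0 ± 0.705 CPM per kb stood above TEAD1 at 13.9 ± 0.488 CPM per kb (SD, n = 3).

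**Figure D3:**
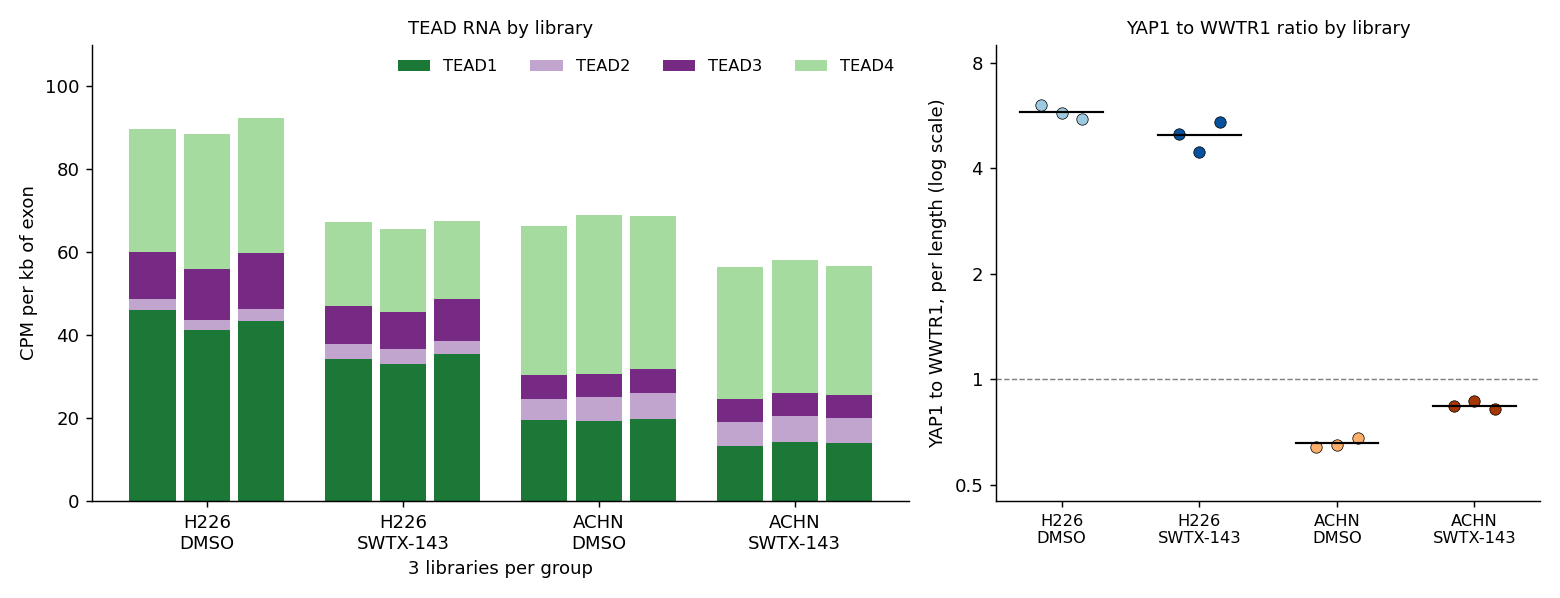
Left, stacked bars of the 4 TEAD genes in each of the 12 libraries (vertical axis, CPM per kb of exon), grouped by line and treatment (horizontal axis); right, the ratio of YAP1 to WWTR1 RNA per length on a log scale, with points for libraries and lines at group means. The bars are shorter with SWTX-143 in both lines (means 66.8 against 90.2 in H226 and 57.0 against 68.0 in ACHN), and the ratio lies above 1 in H226 and below 1 in ACHN.

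Most of the genes through which TEAD output is usually read fell in both lines. Of 22 established YAP/TEAD target genes, 16 were lower and 0 higher in H226, and 16 were lower and 1 higher in ACHN. Their median log2 changes were -0.59 and -0.53, beside medians of 0.00 over all genes tested. This list, like the lists below, was written with earlier results of these data known, so its counts are a description and not a test. The shares over all genes were 21.6% lower and 19% higher in H226, and 9.37% lower and 8.43% higher in ACHN. CTGF, a matricellular protein gene, was at 79.9 ± 7.44 CPM with DMSO and 13.9 ± 1.22 CPM with SWTX-143 in H226, and at 109 ± 1.48 and 21.0 ± 2.06 CPM in ACHN (SD, n = 3). CYR61, its close relative, changed by -1.41 ± 0.04 in H226 and -1.28 ± 0.04 in ACHN (log2, SE). NT5E, the ecto-5′-nucleotidase CD73, was the target that rose in ACHN (0.55 ± 0.05 SE), while it fell in H226 (-0.21 ± 0.06 SE). TEAD4 in H226 (-0.69) and TEAD1 in ACHN (-0.51) changed by about as much as the median target, and far less than CTGF or CYR61, as the plot of both lines shows.

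**Figure D4:**
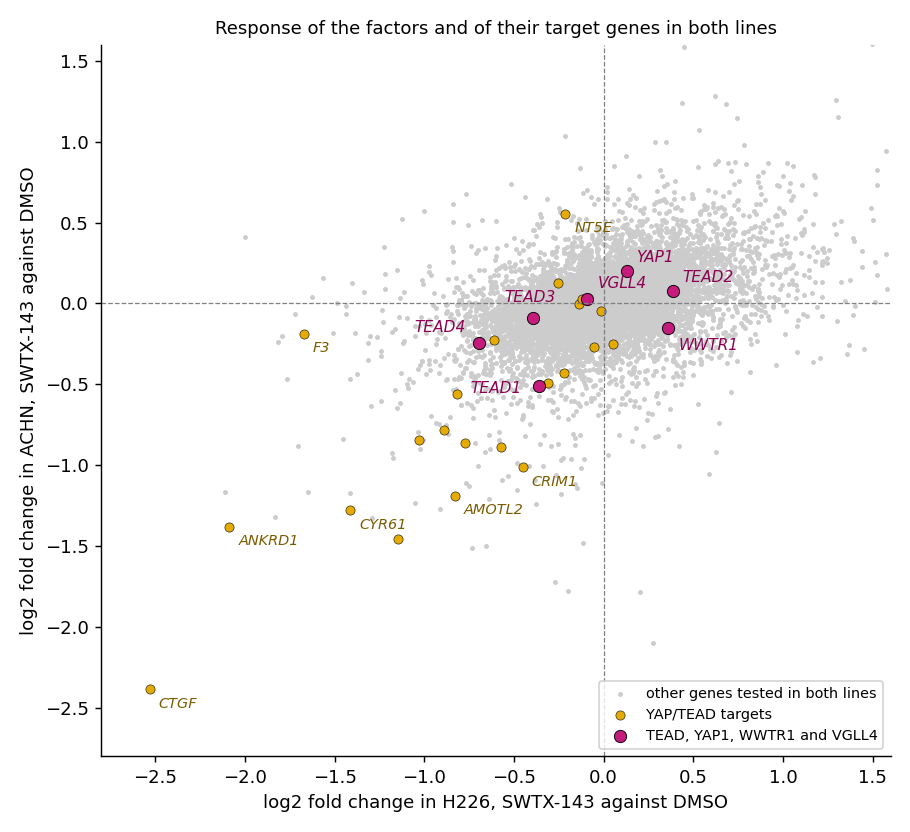
Log2 fold change with SWTX-143 in H226 (horizontal axis) against ACHN (vertical axis) for the genes tested in both lines (grey), the YAP/TEAD targets (yellow) and the 7 members tested in both (magenta); 13 genes lie outside the axes. TEAD1 and TEAD4 lie below 0 in both lines, WWTR1 lies to the right of and below the origin, and targets such as CTGF (-2.53 and -2.39) lie much farther from 0 than any member.

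Upstream of the coactivators, 21 genes of the Hippo kinase module were tested in H226, of which 9 were lower and 1 higher (median -0.08), and 22 in ACHN, of which 7 were lower and 2 higher (median -0.07). Over all genes tested, 21.6% were lower and 19% higher in H226, and 9.37% were lower and 8.43% higher in ACHN. LATS2, one of the kinases that phosphorylate YAP and TAZ, changed by -0.77 ± 0.06 in H226 and -0.87 ± 0.05 in ACHN (log2, SE), and it is also counted among the targets. WWC2, a scaffold that promotes LATS activity, fell from 218 ± 8.72 to 135 ± 3.71 CPM in H226 (SD, n = 3). Its log2 change was -0.70 ± 0.05 there and -0.55 ± 0.05 in ACHN (SE), and both were called. WWC1 fell from 392 ± 6.41 to 271 ± 3.37 CPM in ACHN (SD, n = 3). It was called lower in both lines too, by -0.28 ± 0.04 in H226 and -0.55 ± 0.04 in ACHN (log2, SE). The difference between its responses, 0.26 ± 0.05 SE, passed (adjusted p = 2.38e-04). FRMD6, an upstream FERM-domain protein, fell in both lines (-0.46 ± 0.04 and -0.60 ± 0.05 SE). The kinase MST2 (STK3) was lower in H226 (-0.29 ± 0.07 SE, adjusted p = 0.00116) and not called in ACHN (-0.10 ± 0.08 SE, adjusted p = 0.417). The difference between the responses of STK3 was not significant (adjusted p = 0.241). MST1 (STK4) was also lower in H226 (-0.25 ± 0.05 SE, adjusted p = 1.62e-04) and not called in ACHN (-0.01 ± 0.06 SE, adjusted p = 0.948). For STK4 the difference passed (-0.24 ± 0.08 SE, adjusted p = 0.0238).

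Among proteins that hold YAP and TAZ in the cytoplasm or at junctions, 8 of 18 genes tested were lower and 2 higher in H226, and 4 of 19 were lower in ACHN with none higher. The shares over all genes were 21.6% lower and 19% higher in H226, and 9.37% lower and 8.43% higher in ACHN. AMOTL2, an angiomotin family protein that binds YAP, fell by -0.83 ± 0.04 in H226 and by -1.19 ± 0.04 in ACHN (log2, SE), a difference of 0.36 ± 0.06 SE that passed (adjusted p = 1.83e-06). AMOTL2 is also counted among the targets. YWHAG, a 14-3-3 protein, fell in both lines, by -0.47 ± 0.04 and -0.32 ± 0.04 (SE). Of the genes for the turnover of YAP and TAZ, 3 of 20 were lower in H226 and 2 of 20 in ACHN and none higher, beside 21.6% and 9.37% lower over all genes; the ubiquitin ligase gene NEDD4L fell in both (-0.44 ± 0.05 and -0.34 ± 0.04 SE).

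The 12 genes tested that bear on TEAD palmitoylation showed 3 higher and 4 lower in H226, and 3 lower and 0 higher in ACHN. Over all genes tested, 19% were higher and 21.6% lower in H226, and 8.43% were higher and 9.37% lower in ACHN. Fatty acid synthase (FASN), which makes palmitate, was at 411 ± 11.1 CPM with DMSO and 294 ± 32.4 CPM with SWTX-143 in H226, and at 519 ± 12.9 and 410 ± 21.6 CPM in ACHN (SD, n = 3; adjusted p = 5.87e-04 and 5.42e-11). ACACA, which supplies its malonyl-CoA, was lower in both lines as well (-0.18 ± 0.05 and -0.19 ± 0.04 SE).

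For other proteins that bind TEADs, more genes were called in H226 than in ACHN, as over all genes. Of 18 tested in H226, 8 were higher and 2 lower with a median log2 change of 0.20, and of 18 tested in ACHN 1 was higher and 1 lower with a median of 0.01; over all genes, 40.7% and 17.8% were called. ZMYND8, a chromatin reader, rose from 112 ± 8.80 to 159 ± 2.09 CPM in H226, and the nuclear receptor coactivator NCOA3 rose from 78.9 ± 5.22 to 110 ± 7.16 CPM (SD, n = 3). Their responses differed between the lines by 0.36 ± 0.07 SE (adjusted p = 2.43e-05) and 0.37 ± 0.08 SE (adjusted p = 6.79e-04). In the difference test 5 of 19 such genes were called higher and 0 lower, among them MEF2D (0.39 ± 0.09 SE), and 14 were not called. Over all genes, 5.89% were called higher and 9.7% lower in that test. SRF, the serum response factor, was lower in H226 (-0.35 ± 0.07 SE).

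AP-1 proteins often bind beside TEADs. Of the AP-1 genes, 2 of 8 tested were higher and 3 lower in H226, and 1 of 9 was higher and 1 lower in ACHN. The shares over all genes were 19% higher and 21.6% lower in H226, and 8.43% higher and 9.37% lower in ACHN. JUN stood at 180 ± 13.5 CPM with DMSO and 90.6 ± 2.89 CPM with SWTX-143 in H226 (SD, n = 3; -0.998 ± 0.051 SE) and at 100 ± 2.49 and 92.7 ± 2.35 CPM in ACHN, where it was not called (-0.13 ± 0.05 SE, adjusted p = 0.0538); the difference was -0.88 ± 0.07 SE (adjusted p = 2.19e-17). JUNB rose in both lines, by 0.46 ± 0.07 and 0.45 ± 0.09 (log2, SE). Of the other transcription factors that recruit YAP or TAZ, 2 of 13 were higher and 3 lower in each line, beside the same shares over all genes. SMAD3 was higher in both lines (0.29 ± 0.04 SE in H226 and 0.12 ± 0.04 SE in ACHN), and its responses differed (0.17 ± 0.06 SE, adjusted p = 0.0296). KLF5 was lower in both (-0.24 ± 0.06 and -0.57 ± 0.08 SE). VGLL2, a relative outside the 9 genes, was at 2.66 ± 0.605 CPM in H226 with DMSO (SD, n = 3) and had no count in ACHN.

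The genes whose levels ran most closely with each member were taken from 10040 genes at 5 CPM or more, by Pearson's r over the 12 libraries after each line's mean was removed. The 12 values share libraries and fall into treated and untreated groups, so r is a description. The closest to TEAD1 was ADAMTS3 (r = 0.984), a procollagen protease gene, and among the closest to TEAD4 was the tropomyosin gene TPM1 (r = 0.991). TPM1 changed by -0.73 in H226 and -0.23 in ACHN, beside -0.69 and -0.24 for TEAD4 (log2). For TEAD3 the closest was DIAPH1 (r = 0.963), which encodes a formin, and for TEAD2 it was ARID1B (r = 0.952), a chromatin remodelling subunit gene. BCL10 (r = 0.964) ran closest to YAP1. ATP1B1 (r = 0.973), a sodium pump subunit gene, ran closest to WWTR1 and moved in the same opposite directions, by 0.47 in H226 and -0.15 in ACHN (log2). VGLL4 had no partner above MIEF2 (r = 0.872). VGLL1 and VGLL3 were not given partners, the one for want of counts and the other because ACHN held almost none.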

How the data were processed

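RNA was measured in 12 poly(A) libraries, 3 for each of 2 lines with DMSO or 100 nM SWTX-143. The deposited files hold raw read counts per gene symbol, which the authors made from reads processed with cutadapt and STAR 2.6.1d on hg19, per the submitters' processing notes; for the counting program, annotation and strand setting, nothing is given in the sources used here. The members, gene lists and tests were chosen with earlier results of these data known. Within each line, and jointly for baseline and difference, counts were tested with edgeR 4.0.16 (R 4.3.3; filterByExpr, TMM, robust quasi-likelihood F test, Benjamini-Hochberg adjusted p under 0.05). CPM use TMM-scaled totals over all libraries. Exon lengths came from a GRCh38 annotation, matched by symbol (24558 of 27064). Besides members, NF2 and the 3 genes of each list with the smallest p per line were eligible to be named. From the marker lists, the 2 highest genes in their own line were eligible, which covers CALB2 and PAX8. Others (NT5E, STK3, STK4, SRF, VGLL2, the antisense partners) were picked after their values were seen. So were the remaining marker genes named, such as CDH6, MME, AQP1, LRP2, CD68, CD14, KDR, COL1A1 and COL3A1. Self-tests on simulated counts recovered 89% of 100 changes of 0.5 on the log2 scale in H226 (13379 genes in the fit), 94% in ACHN (13400) and 62% in the difference (14550). False calls numbered 7, 12 and 6. The changes were placed only in well-counted genes, so these rates do not cover genes with few counts. DESeq2 1.42.0, other scalings and filters, left-out libraries and a replicate block were alternatives. Totals ran from 9690980 to 11262663 counts, and intervals on counts cover counting error only.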

Additional observations from a re-analysis of the deposited data

Results flagged for a closer look

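The response of 2 members differed between the lines by a test of the difference itself, the joint edgeR contrast of the 2 drug effects. TEAD4 differed by -0.46 (log2, H226 minus ACHN): it was lower with SWTX-143 in 3 of 3 libraries of both lines, and by more in H226. WWTR1 differed by 0.51: it was higher in 3 of 3 treated libraries of H226 and lower in 3 of 3 of ACHN. Over the alternatives run, TEAD4 lay between -0.48 and -0.38 (highest adjusted p 4.56e-04) and WWTR1 between 0.46 and 0.61 (highest adjusted p 7.64e-06). Line, tissue of origin and handling cannot be told apart here.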

How the results depend on the processing

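The responses of TEAD1, TEAD3, TEAD4, WWTR1 and VGLL3 in H226 and of TEAD1, TEAD4 and YAP1 in ACHN kept direction and call under the alternatives run, as did the 8 baseline differences. TEAD2 in H226 did not pass with DESeq2 (0.40, adjusted p = 0.0837). In ACHN, TEAD2 turned to -0.024 and VGLL4 to -0.014 without ACHN DMSO replicate 1, and VGLL4 to -0.0084 without ACHN SWTX-143 replicate 2; with each replicate left out in turn they ranged from -0.024 to 0.165 and from -0.014 to 0.063, and none was called. The members called higher in the difference numbered 2 (TEAD1 added) with RLE factors, upper-quartile scaling, library size alone, no filter or a 5 CPM filter, and 1 to 2 when a replicate was left out (TEAD1 or, without ACHN DMSO replicate 2, VGLL3 added). In H226, 1 to 3 members were called higher when a replicate was left out. DESeq2 called 842 genes lower and 631 higher in ACHN against 1264 and 1137, and 863 lower in the difference against 1423; leaving out a replicate gave 832 to 1411 there. Lower and higher calls were 2324 and 3283 in H226 and 1028 and 1450 in ACHN with upper-quartile scaling, and 2419 and 3110, and 977 and 1537, by library size alone, against 2919 and 2567 in H226. The difference then had 1045 and 1159 with upper-quartile scaling, the baseline 7057 and 5308 by library size, and ACHN 994 and 1240 in the joint fit. With the longest transcript, TEAD4 shares were 38.2% and 32.3% in H226 and 57.6% and 58.7% in ACHN, TEAD1 shares 27.5% and 23.3% in ACHN, and YAP1 to WWTR1 ratios 4.03, 3.46, 0.459 and 0.588. A correction for a trend with length was chosen after seeing the data. Same-numbered libraries did not deviate together (r = -0.06, 0.17 and 0.11 in H226, -0.13, -0.16 and -0.06 in ACHN), so numbers were not taken as pairs; with a replicate block, 3062 genes were lower and 2682 higher in H226, 1151 and 995 in ACHN, and member calls were unchanged. The causes of these shifts were not tested. Depth leaves VGLL1, and VGLL3 in ACHN, without a readable response.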
